A study of Rattus norvegicus with 22 samples.

Results

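The Ppp1 to Ppp6 genes encode the catalytic subunits, scaffolds, regulatory subunits and inhibitors of the protein serine/threonine phosphatases PP1, PP2A, calcineurin (PP3), PP4, PP5 and PP6. Members were taken as every gene on the array whose probe accession carried a rat symbol beginning with one of these prefixes, with 1 probe per gene, the brightest over all arrays. This gave 67 genes, measured by 80 probes, among 26903 genes on the array. Family genes without a probe named in this way were not analysed here.

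RNA came from germ cells of male rats gavaged with cyclophosphamide, an alkylating anticancer drug, or with saline, and was hybridised to 22 one-colour Agilent arrays. Treated rats received 6 mg/kg on 6 days per week for 4 weeks. Cells were separated by unit gravity sedimentation into pachytene spermatocytes, germ cells in the prophase of meiosis, and haploid round spermatids, formed once meiosis is complete. The 4 groups were pachytene spermatocytes of saline rats (n = 5), pachytene spermatocytes of cyclophosphamide rats (n = 5), round spermatids of saline rats (n = 6) and round spermatids of cyclophosphamide rats (n = 6). Strain and age are not given in the sources used here. Each array is labelled with a rat number, but the labels do not say whether equal numbers name the same animal.

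Between 65.3% and 76.4% of probes were well above background per array, and no spot was saturated. The arrays lay on 4 slides scanned on 2 days. Slides 1 and 2 held both cell types, each with 1 pachytene and 3 round spermatid arrays per treatment. Slides 3 and 4 held only pachytene arrays. The markers of the labelled cells followed the labels for the most part: 12 of 12 round spermatid markers were higher in round spermatids of saline rats, and 11 of 14 pachytene markers were lower, with Ccna1 higher by 1.33 and Ldhc and Hspa2 not passing. Genes of other testis cells also differed: 10 of 10 macrophage markers and 6 of 7 peritubular myoid markers were higher in round spermatids, while 9 of 12 Sertoli cell and 8 of 8 Leydig cell markers were lower. The summed linear macrophage signal, relative to each array's 75th percentile, was 6.30 to 14.5 in round spermatids and 1.29 to 1.73 in pachytene spermatocytes of saline rats, and that of myoid markers was 5.81 to 11.7 against 2.99 to 5.20. That of Sertoli cell markers was 2.70 to 7.51 against 25.4 to 37.6, and that of Leydig cell markers 1.95 to 4.34 against 5.94 to 11.8. The part of these cells in the members' differences was not tested. In such bulk fractions, fewer cells of a type and less RNA per cell cannot be told apart.

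The catalytic subunits of these phosphatases remove phosphate from serine and threonine and gain their targets largely from partner proteins. PP1 binds one of many regulatory or inhibitory subunits, PP2A is a trimer of catalytic, scaffold and B subunits, and calcineurin joins a catalytic A subunit to a calcium-binding B subunit. In the male germ line, the PP1 isoform from Ppp1cc is needed for spermatogenesis, and the calcineurin subunits Ppp3cc and Ppp3r2 form the sperm form of that enzyme.

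Promoters were searched for 5 motifs. After that search, 5 members that differed between the cell types were seen to carry the cyclic AMP response element in the bases searched. This element is the site of CREB and CREM, and windows are shown for that reason. RefSeq promoters (build GRCr8) were found for 55 of the 67 members, and the 250 bases before each start were searched on both strands. The full element TGACGTCA was in 5 of 55 member windows (9.09%) and in 1.59% of all 33469 windows of that length. The 5 genes were Ppp1r2l1, Ppp2r2d and Ppp2ca, which were higher in round spermatids in both treatments (Ppp2ca in treated rats not with slide as a block, adjusted p = 0.0546), and Ppp1r12c and Ppp1r15a, which were lower in both. Windows are shown for 4 of them, since that of Ppp2ca lay wholly inside its annotated gene. Ppp1r2, the paralog of Ppp1r2l1, is also shown, and its window held only the core TGACG. Capitals mark TGACG on either strand, which in 4 windows is part of TGACGTCA, and bases inside the annotated gene were left out. The windows are Ppp1r2l1 at chr10:55123450-55123572 on the minus strand, Ppp2r2d at chr1:203095332-203095535 on the plus strand, Ppp1r12c at chr1:78362678-78362899 on the plus strand, Ppp1r15a at chr1:105139597-105139846 on the minus strand and Ppp1r2 at chr11:82977384-82977633 on the plus strand.
Ppp1r2l1: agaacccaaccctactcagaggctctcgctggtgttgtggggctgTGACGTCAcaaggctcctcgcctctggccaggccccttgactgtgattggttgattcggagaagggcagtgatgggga
Ppp2r2d: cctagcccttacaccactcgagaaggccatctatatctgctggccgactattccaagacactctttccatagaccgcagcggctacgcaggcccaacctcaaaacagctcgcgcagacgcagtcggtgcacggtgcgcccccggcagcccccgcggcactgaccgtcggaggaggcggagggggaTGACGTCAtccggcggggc
Ppp1r12c: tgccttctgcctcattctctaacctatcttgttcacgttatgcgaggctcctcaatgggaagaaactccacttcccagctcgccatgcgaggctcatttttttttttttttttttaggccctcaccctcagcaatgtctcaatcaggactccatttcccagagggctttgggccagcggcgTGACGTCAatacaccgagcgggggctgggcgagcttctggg
Ppp1r15a: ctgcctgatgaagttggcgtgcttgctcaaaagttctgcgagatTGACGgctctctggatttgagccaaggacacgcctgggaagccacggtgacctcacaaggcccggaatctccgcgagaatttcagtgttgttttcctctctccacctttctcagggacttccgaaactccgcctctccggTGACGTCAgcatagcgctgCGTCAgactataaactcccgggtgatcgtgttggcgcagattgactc
Ppp1r2: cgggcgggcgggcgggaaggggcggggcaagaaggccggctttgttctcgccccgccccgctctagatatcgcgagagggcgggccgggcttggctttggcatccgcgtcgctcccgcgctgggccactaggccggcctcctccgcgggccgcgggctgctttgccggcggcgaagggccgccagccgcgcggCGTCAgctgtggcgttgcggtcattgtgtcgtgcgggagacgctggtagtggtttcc

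Distances were counted back from the start at which each searched window ended. The first base of TGACGTCA lay 205 bases before it for Ppp1r2l1, 65 for Ppp2r2d, 69 for Ppp1r12c and 66 for Ppp1r15a. The printed sequences of Ppp1r2l1, Ppp2r2d and Ppp1r12c stop short of that start, since bases inside the annotated gene were left out. In these sequences the element therefore lies fewer bases from the printed end. The core TGACG, which every TGACGTCA contains, was in 20 of 55 member windows (36.4%) and in 18.2% of all windows. The RFX core GTTGCCA was in 4 (7.27% against 3.67%), the A-MYB core GGCAGTT in 2 (3.64% against 3.36%), and the E2F site TTTCGCGC in none (against 0.248%). Such matches describe the letters only.

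Round spermatids were compared with pachytene spermatocytes to see which phosphatase genes change across meiosis. A level is the log2 signal of a gene minus the array's 75th percentile, a difference is round spermatid minus pachytene on that scale, and a gene passed at an adjusted p under 0.05 in limma. Of the 67 members, 52 were well above background on all 22 arrays, 5 on none, and 55 were bright enough to be tested. The 12 untested ones were Ppp1r14c, Ppp1r14d, Ppp1r16b, Ppp1r17, Ppp1r1a, Ppp1r1c, Ppp1r27, Ppp1r3a, Ppp1r3b, Ppp1r3e, Ppp2r2c and Ppp2r5b.

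In saline rats 27 of 55 members were higher and 15 lower in round spermatids, 76.4% in all, near the 75.3% of all 19422 tested genes that passed (38.3% higher and 37% lower). In cyclophosphamide rats 23 were higher and 15 lower (69.1%), against 79.2% of all tested genes (38.8% higher and 40.4% lower). In saline rats the count of changed members is therefore close to the background and is no feature of the family. In cyclophosphamide rats the share lay below the background, and that gap was not tested. Fewer members differed by over 2-fold: 19 of 55 (34.5%) in saline rats against 46% of tested genes, and 6 by over 4-fold against 19%. In cyclophosphamide rats 21 members (38.2%) differed by over 2-fold against 51.4%, and 7 by over 4-fold against 24.6%. The median standard deviation within groups was 0.23 over the members and 0.29 over all tested genes. The median difference was 0.32 over the members and 0.01 over all tested genes in saline rats, and 0.17 against -0.02 in cyclophosphamide rats. The 5 pachytene and 6 round spermatid arrays did not overlap for 31 members in saline rats (background 57.1%) and for 32 in cyclophosphamide rats (background 67%). Over both treatments, which share no array, 37 of 55 members passed in the same direction (background 72.4%), 0 in opposite directions, 6 in one treatment and 12 in neither. The 2 slides that held both cell types gave 27 (slide 1) and 28 (slide 2) passing members in saline rats, 49.1% and 50.9%, against 55.8% and 60.2% of all tested genes. In cyclophosphamide rats they gave 29 and 30, 52.7% and 54.5%, against 64.3% and 64.4%. With slide as a block 36 and 33 members passed (65.5% and 60%), against 72.7% and 77.4% of all tested genes.

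**Figure D1:**
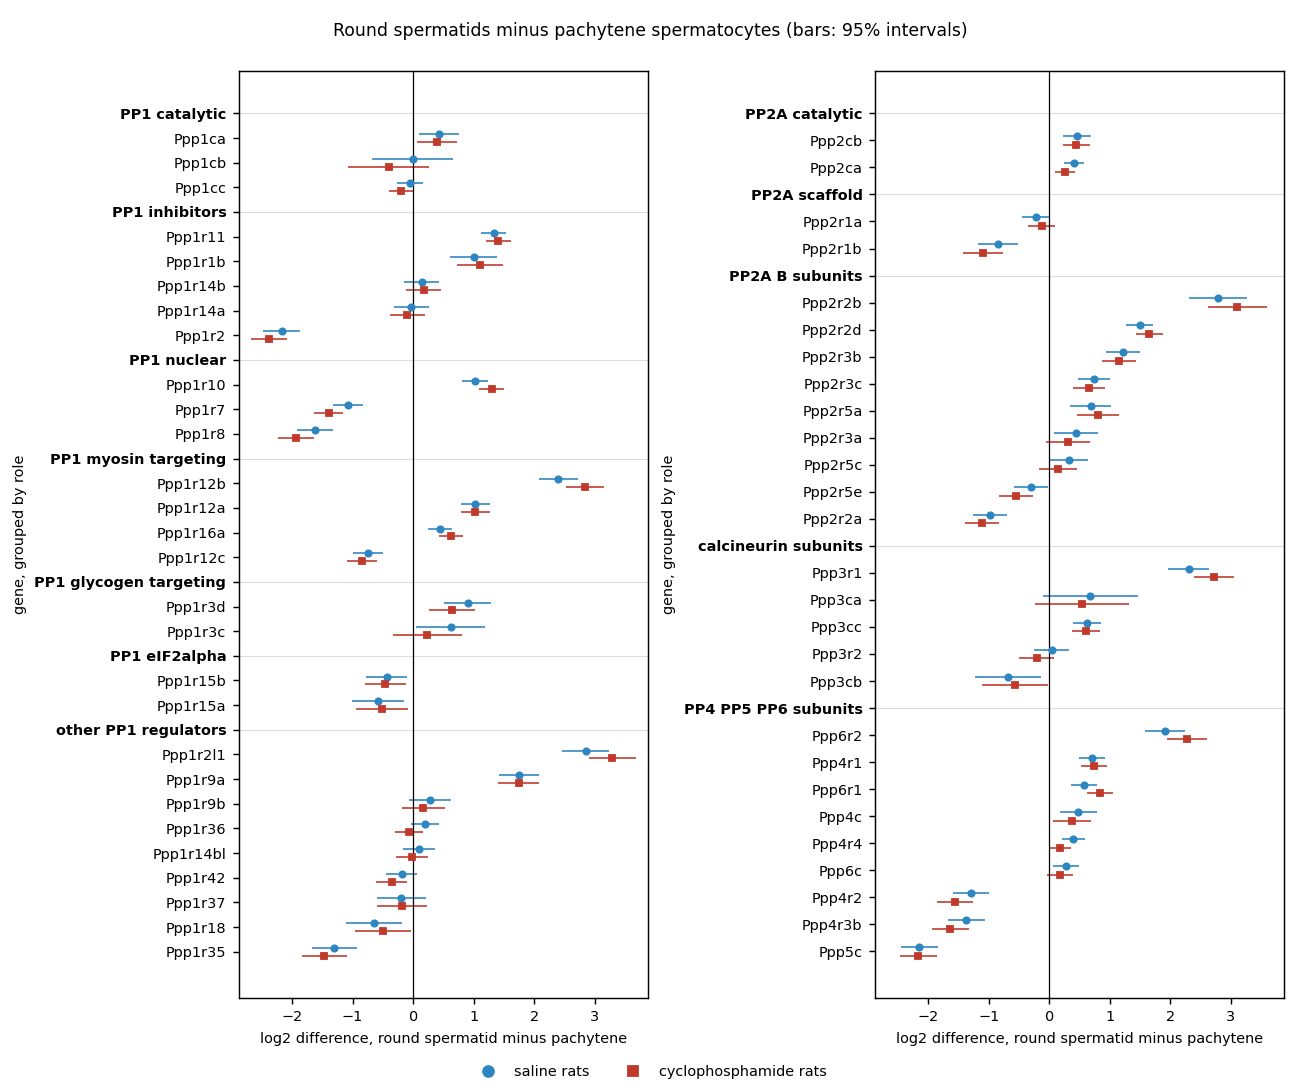
Log2 difference in level between round spermatids and pachytene spermatocytes for the 55 tested members, grouped by role, in saline rats (blue circles) and cyclophosphamide rats (red squares); bars are 95% intervals. Ppp1r2l1, Ppp2r2b, Ppp1r12b and Ppp3r1 lie over 2 log2 units above 0 and Ppp1r2 and Ppp5c over 2 below it in both treatments.

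The catalytic subunits of PP1 changed little on their brightest probes. Ppp1ca was 1.35-fold higher in round spermatids of saline rats (adjusted p = 0.0183) and 1.31-fold higher in treated rats (adjusted p = 0.0288), but with slide as a block neither passed (0.27 and 0.32, adjusted p = 0.16 and 0.0847). Ppp1cc levels were 6.10, 6.14, 6.15, 6.48 and 6.50 in the pachytene arrays of saline rats and ran from 6.07 to 6.41 (median 6.21) in the 6 round spermatid arrays. They overlapped fully, and the difference was -0.05 ± 0.10 (SE, adjusted p = 0.648). In treated rats it was -0.19 ± 0.10 (SE, adjusted p = 0.0838).

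A second Ppp1cc probe gave another result. Its level was 1.24 ± 0.11 (SD, n = 5) in pachytene spermatocytes and 0.35 ± 0.13 (SD, n = 6) in round spermatids of saline rats, with no overlap, a difference of -0.89 ± 0.10 (SE, adjusted p = 5.75e-08). In treated rats the second probe differed by -0.96 ± 0.10 (SE, adjusted p = 1.41e-08). Over all probes of the gene averaged, Ppp1cc was lower by 0.47 and passed. Whether Ppp1cc passed therefore depended on the probe read.

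Ppp1cb, the beta catalytic subunit, held 3 probes. The brightest followed the slide: in pachytene spermatocytes it lay at 0.05 to 0.10 on slide 1 and -0.05 to 0.19 on slide 4, but at 1.12 to 1.22 on slide 2 and 0.77 to 0.96 on slide 3. In round spermatids it was -0.50 to 0.04 on slide 1 and 0.55 to 1.17 on slide 2. Its difference was -0.01 ± 0.32 (SE, adjusted p = 0.989) in saline rats. With slide as a block the standard error fell to 0.14 and the difference was -0.17 in saline rats (adjusted p = 0.286) and -0.41 in treated rats (adjusted p = 0.0127).

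The other 2 Ppp1cb probes were lower in round spermatids. On slides 1 and 2 the round spermatid arrays of the second probe lay at -2.70 to -1.67 and -2.66 to -2.10, and those of the dimmest at -4.28 to -3.57 and -3.98 to -3.75, so the slides overlapped. The second had a difference of -2.32 ± 0.22 (SE, adjusted p = 3.29e-09) in saline rats and the dimmest -1.77 ± 0.26 (SE, adjusted p = 1.74e-06). In treated rats they were -2.59 ± 0.22 and -1.76 ± 0.26. Mean signal over the 3 probes was lower by 1.37 in saline rats and passed.

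**Figure D2:**
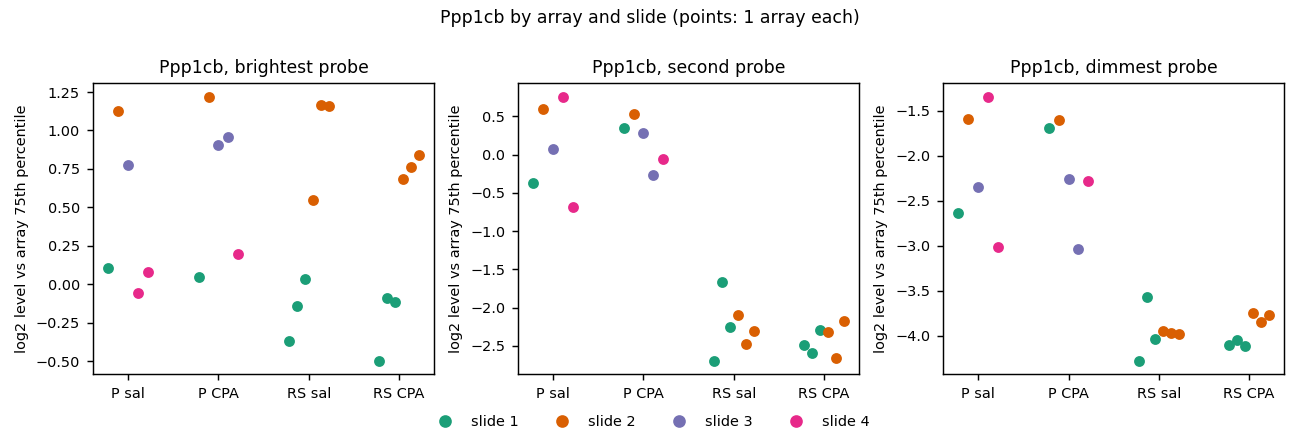
Levels of the 3 Ppp1cb probes (log2, relative to each array's 75th percentile), 1 point per array, by cell type (P, pachytene; RS, round spermatid) and treatment (sal, saline; CPA, cyclophosphamide), coloured by slide. The brightest probe separates slides 2 and 3 from 1 and 4, while the second and dimmest separate the cell types.

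Other genes with several probes also varied between them. Counting Ppp1cc and Ppp1cb again, 7 genes held 8 further probes that were above background on all arrays. In saline rats 4 of these matched the chosen probe in direction and call. The 4 that differed in call were those of Ppp1cc, Ppp1cb and Ppp1r16a. Ppp2r5e, a B56 regulatory subunit of PP2A, was -0.31 ± 0.14 (SE, adjusted p = 0.0424) on its chosen probe, which did not pass with slide as a block (-0.29, adjusted p = 0.131), and -2.31 on a dimmer one, which did (-2.46, adjusted p = 2.34e-08). In treated rats the chosen probe passed with the block as well (-0.54, adjusted p = 0.00738). Ppp6r1, a regulatory subunit of PP6, was 0.57 on its chosen probe and 1.38 on the other.

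The inhibitor-2 genes of PP1 moved in opposite directions. Ppp1r2, inhibitor-2, had levels of -0.95, -0.76, -0.71, -0.50 and -0.36 in the pachytene arrays of saline rats and ran from -3.17 to -2.18 (median -2.93) in the 6 round spermatid arrays. The groups did not overlap, and Ppp1r2 was 4.51-fold (95% interval 3.66 to 5.56, adjusted p = 1.14e-11) lower in round spermatids of saline rats. In treated rats the levels were -0.73, -0.52, -0.50, -0.49 and -0.36 in the pachytene arrays of treated rats and from -3.14 to -2.79 (median -2.87) in the round spermatid arrays, and the gene was 5.21-fold lower.

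Ppp1r2l1, a gene related to Ppp1r2 in the RefSeq naming, had levels of 0.86, 1.28, 1.36, 1.86 and 1.99 in the pachytene arrays of saline rats and ran from 4.09 to 4.63 (median 4.30) in the 6 round spermatid arrays. Every round spermatid array lay above every pachytene array. It was 7.23-fold (95% interval 5.52 to 9.48, adjusted p = 9.52e-12) higher in round spermatids of saline rats and 9.82-fold higher in treated rats. RefSeq lists a Ppp1r2 pseudogene as well, and whether either probe also binds its RNA was not tested.

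Ppp1r11, inhibitor-3, had levels of 2.32, 2.34, 2.39, 2.43 and 2.73 in the pachytene arrays of saline rats and ran from 3.56 to 4.0 (median 3.77) in the 6 round spermatid arrays, so the groups did not overlap. It was 2.51-fold (95% interval 2.19 to 2.89, adjusted p = 3.73e-11) higher. Ppp1r1b (DARPP-32), a dim probe that was well above background on 4 of 5 pachytene arrays of saline rats, was 2.0-fold higher (adjusted p = 4.45e-05) in saline rats. In treated rats Ppp1r1b was well above background on 5 of 6 round spermatid arrays but on 1 of 5 pachytene arrays, so the fitted difference of 1.11 sets round spermatids against a level near background. Under normexp background correction that difference was 0.15 and did not pass (adjusted p = 0.271). A second Ppp1r1b probe, well above background on 3 of 22 arrays, did not pass in saline or treated rats (0.57 and 0.29, adjusted p = 0.147 and 0.456). Of the CPI-17 group, which inhibit PP1 bound to myosin phosphatase, Ppp1r14a and Ppp1r14b did not pass, with differences of -0.03 and 0.14.

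The nuclear partners of PP1 moved in both directions. Ppp1r8 (NIPP1), a nuclear inhibitor, had levels of -0.44, -0.40, -0.38, -0.30 and 0.01 in the pachytene arrays of saline rats and ran from -2.30 to -1.56 (median -1.94) in the 6 round spermatid arrays, with no overlap, and was 3.08-fold (95% interval 2.51 to 3.79, adjusted p = 7.29e-10) lower. Ppp1r7 (SDS22), a conserved PP1 regulator, was 2.11-fold lower (adjusted p = 2.25e-08). In treated rats Ppp1r8 was 3.83-fold and Ppp1r7 2.63-fold lower. Ppp1r10 (PNUTS) was 2.04-fold higher (adjusted p = 6.14e-09) and 2.46-fold higher in treated rats.

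Of the myosin phosphatase targeting subunits, Ppp1r12b stood out. Its levels were 0.01, 0.12, 0.24, 0.57 and 0.84 in the pachytene arrays of saline rats and ran from 2.57 to 2.99 (median 2.70) in the 6 round spermatid arrays, and it was 5.28-fold (95% interval 4.23 to 6.59, adjusted p = 6.99e-12) higher in round spermatids, 7.18-fold in treated rats. Ppp1r12b is best known from smooth and striated muscle, and the myoid markers named above rose in the same fraction; their part in this result was not tested. Ppp1r12a was 2.04-fold higher (adjusted p = 3.33e-08), Ppp1r16a, a membrane-bound relative, 1.36-fold higher (adjusted p = 0.000266) and Ppp1r12c 1.67-fold lower (adjusted p = 7.12e-06). A second Ppp1r16a probe, above background on all arrays, did not pass in saline rats (0.12, adjusted p = 0.301). In treated rats that probe passed (0.24, adjusted p = 0.0474).

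Of the glycogen-targeting subunits, Ppp1r3d was 1.87-fold higher and Ppp1r3c 1.53-fold (adjusted p = 0.0494) in saline rats, while Ppp1r3c did not pass in treated rats (adjusted p = 0.441). The subunits that direct PP1 to phosphorylated eIF2alpha were lower: Ppp1r15a (GADD34) by 1.49-fold (adjusted p = 0.0148) and Ppp1r15b (CReP) by 1.35-fold (adjusted p = 0.0197), though Ppp1r15b and Ppp1r3c did not pass with slide as a block (adjusted p = 0.135 and 0.347). Under normexp Ppp1r3c in saline rats and Ppp1r3d in treated rats did not pass either (adjusted p = 0.248 and 0.174). Ppp1r9a (neurabin) was 3.36-fold higher, and Ppp1r35, a centrosome protein, 2.47-fold lower, with no overlap for either. Ppp1r18 (phostensin), an actin-binding PP1 partner with a dim probe, was 1.57-fold lower in saline rats (adjusted p = 0.0119), with no overlap, and 1.41-fold lower in treated rats (adjusted p = 0.0473), where the arrays overlapped. With slide as a block Ppp1r18 in treated rats did not pass (adjusted p = 0.171). Within slide 2, which held 1 treated pachytene array, its difference was 0.13. Ppp1r36, Ppp1r37, Ppp1r9b and Ppp1r14bl had differences of 0.28 or less in size and did not pass. Ppp1r42 was -0.19 in saline rats (adjusted p = 0.177) and -0.36 in treated rats (adjusted p = 0.0127), the latter not with slide as a block (adjusted p = 0.122).

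**Figure D3:**
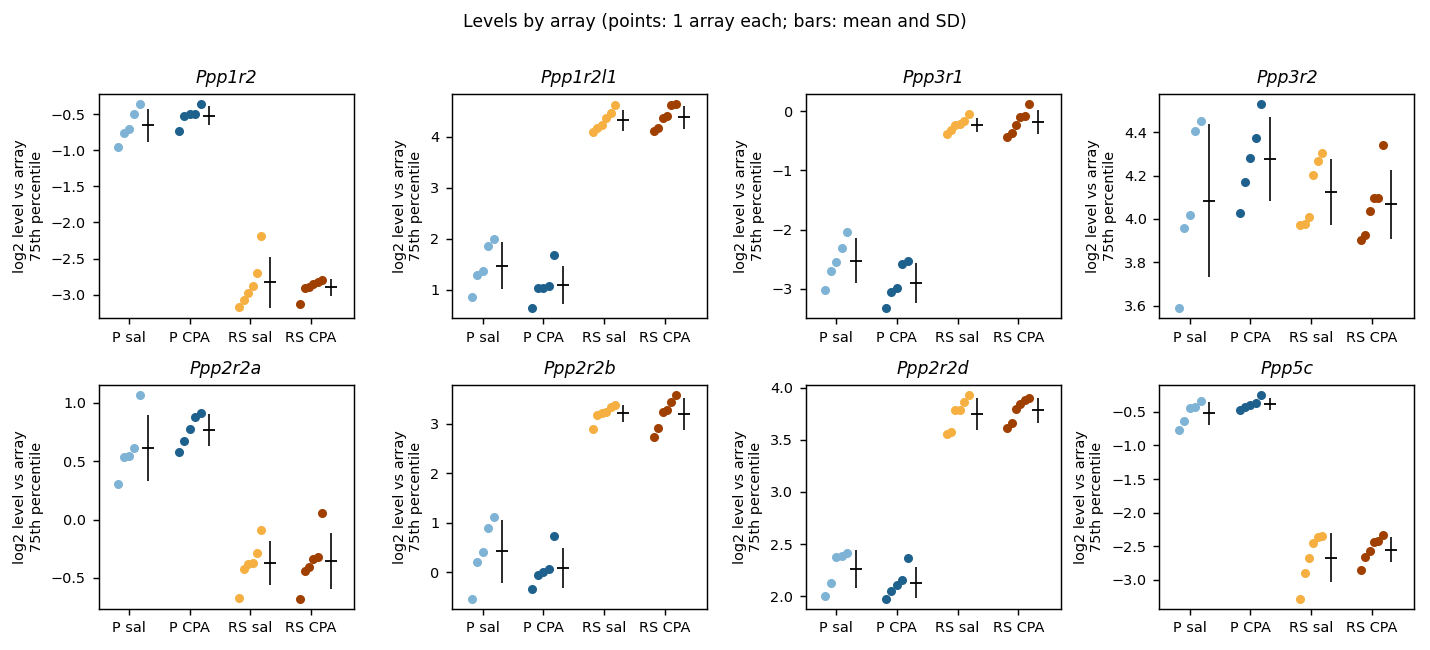
Levels (log2, relative to each array's 75th percentile) of Ppp1r2, Ppp1r2l1, Ppp3r1, Ppp3r2, Ppp2r2a, Ppp2r2b, Ppp2r2d and Ppp5c by array (1 point each), cell type (P, pachytene; RS, round spermatid) and treatment (sal, saline; CPA, cyclophosphamide); bars show mean and SD. For each gene except Ppp3r2 the cell types do not overlap, and treatment groups within a cell type do.

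PP2A's catalytic subunits rose modestly. Ppp2ca was 1.33-fold higher (adjusted p = 0.000117) and Ppp2cb 1.37-fold (adjusted p = 0.000806) in saline rats. In treated rats Ppp2ca was 1.20-fold higher (adjusted p = 0.00696), but did not pass with slide as a block (0.22, adjusted p = 0.0546) or under median scaling (0.21, adjusted p = 0.0682). Its scaffold subunits did not follow: Ppp2r1b was 1.81-fold lower (adjusted p = 4.56e-05), and Ppp2r1a differed by -0.22 ± 0.11 (SE, adjusted p = 0.0672), passing under normexp and under median scaling (-0.25 and -0.26, adjusted p = 0.0267 and 0.0463).

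The B subunits, which choose the substrates of PP2A, moved in opposite directions within one class. Of 9 tested, 6 were higher and 2 lower in saline rats, 5 and 2 in treated rats, and over all tested genes 38.3% were higher and 37% lower in saline rats. On the chosen probes the B55 subunits held the largest differences in both directions. Ppp2r2b levels were -0.53, 0.21, 0.42, 0.90 and 1.12 in the pachytene arrays of saline rats and ran from 2.90 to 3.39 (median 3.23) in the 6 round spermatid arrays. It was 6.90-fold (95% interval 4.94 to 9.63, adjusted p = 3.03e-10) higher, and 8.62-fold in treated rats. Ppp2r2d levels were 2.0, 2.13, 2.38, 2.38 and 2.41 in the pachytene arrays of saline rats and ran from 3.56 to 3.93 (median 3.79) in the 6 round spermatid arrays, a rise of 2.81-fold (95% interval 2.41 to 3.27, adjusted p = 2.59e-11). Ppp2r2a levels were 0.30, 0.54, 0.54, 0.61 and 1.07 in the pachytene arrays of saline rats and ran from -0.67 to -0.09 (median -0.38) in the 6 round spermatid arrays, and the gene was 1.98-fold (95% interval 1.63 to 2.41, adjusted p = 9.04e-07) lower. None of the 3 overlapped between the cell types in either treatment. The calcium-binding B'' subunits were higher too, Ppp2r3b by 2.33-fold (adjusted p = 2.87e-08) and Ppp2r3c by 1.67-fold (adjusted p = 1.76e-05).

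Of the remaining B subunits, Ppp2r5e was the other lower one, with the probes given above. Ppp2r5a of the B56 class was 1.60-fold higher (adjusted p = 0.000819), but not past the threshold under normexp (0.18, adjusted p = 0.144), and the dim Ppp2r3a 1.36-fold higher in saline rats (adjusted p = 0.0257) but not past the threshold in treated rats (adjusted p = 0.114). With slide as a block Ppp2r3a did not pass in saline rats either (adjusted p = 0.23). Ppp2r5c differed by 0.32 ± 0.15 (SE, adjusted p = 0.0628), but passed with slide as a block (0.47, adjusted p = 0.026), as did its second probe (0.59, adjusted p = 0.00596).

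Calcineurin's regulatory B subunits differed from each other. Ppp3r1, the widely used B subunit, had levels of -3.03, -2.70, -2.55, -2.32 and -2.04 in the pachytene arrays of saline rats and ran from -0.39 to -0.05 (median -0.22) in the 6 round spermatid arrays, and was 4.92-fold (95% interval 3.90 to 6.21, adjusted p = 2.33e-11) higher in round spermatids, 6.60-fold in treated rats. Ppp3r2, the testis B subunit, had levels of 3.59, 3.96, 4.02, 4.40 and 4.45 in the pachytene arrays of saline rats and ran from 3.97 to 4.30 (median 4.11) in the 6 round spermatid arrays, which overlapped, with a difference of 0.04 ± 0.14 (SE, adjusted p = 0.817) and an interval of 0.841 to 1.25 as a fold. In treated rats Ppp3r2 passed under quantile normalization (-0.35, adjusted p = 0.00369). Among the catalytic A subunits, Ppp3cc was 1.54-fold higher (adjusted p = 2.93e-05).

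Ppp3cb was 1.61-fold lower in saline rats (adjusted p = 0.0241), but with slide as a block it did not pass (-0.28, adjusted p = 0.402), and it did not pass in treated rats (adjusted p = 0.0542), though it did there under normexp (-0.54, adjusted p = 0.0125). Ppp3ca did not pass (0.67 ± 0.38 (SE, adjusted p = 0.111)). Its value of -1.22 on the round spermatid array of saline rat 29 stood apart from the other 5 (-4.13 to -3.93), and without that array the difference was 0.21 (adjusted p = 0.338).

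Of PP4, PP5 and PP6, 6 of 9 tested subunits were higher and 3 lower in saline rats, where 75.3% of all tested genes passed, and 4 were higher and 3 lower in treated rats, where 79.2% did. Ppp5c, a phosphatase with its own TPR domain, had levels of -0.76, -0.64, -0.45, -0.42 and -0.33 in the pachytene arrays of saline rats and ran from -3.28 to -2.35 (median -2.57) in the 6 round spermatid arrays, with no overlap. It was 4.44-fold (95% interval 3.60 to 5.47, adjusted p = 1.41e-11) lower and 4.49-fold in treated rats. The PP4 regulatory subunits Ppp4r3b and Ppp4r2 were also lower, by 2.59-fold (adjusted p = 1.91e-08) and 2.45-fold (adjusted p = 3.70e-08), while Ppp4r1 was 1.63-fold higher.

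Ppp6r2, a regulatory subunit of PP6, had levels of -0.40, -0.20, -0.08, 0.14 and 0.69 in the pachytene arrays of saline rats and ran from 1.59 to 2.12 (median 1.99) in the 6 round spermatid arrays. It was 3.76-fold (95% interval 2.98 to 4.74, adjusted p = 3.74e-10) higher, and 4.83-fold higher in treated rats. The catalytic subunits rose less: Ppp4c by 1.39-fold (adjusted p = 0.00632) and Ppp6c by 1.21-fold (adjusted p = 0.0241). Neither held up in full: Ppp4c did not pass with slide as a block (0.23, adjusted p = 0.155), and Ppp6c did not under quantile normalization (0.17, adjusted p = 0.136). In treated rats Ppp4c was 0.38 (adjusted p = 0.0258), and -0.35 within slide 2, which held 1 treated pachytene array. Ppp6c did not pass in treated rats (0.18, adjusted p = 0.126).

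Related genes that carry other names, either partners of these phosphatases or other phosphatases, were counted from lists in the same way for saline rats. There, 38.3% of all tested genes were higher and 37% lower. Of 17 named PP1 partners, 12 were higher and 5 lower (median 1.63), with Akap1 at 2.85, a mitochondrial anchor, and Tmem225 at 2.52, a sperm PP1 partner. Of 14 PPM and PPEF phosphatases, which are other serine/threonine phosphatases, 11 were higher and 2 lower (median 1.87). Of 15 PP2A inhibitors, activators and STRIPAK genes, 6 were higher and 5 lower (median -0.03). Of 14 calcineurin partners, 4 were higher and 7 lower (median -0.38), with Rcan1, a calcineurin inhibitor, at -1.58 and Camk4 at 2.15. Median over all tested genes was 0.01.

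Cyclophosphamide was compared with saline within each cell type. No member passed in either, or for the difference between cell types, and 0% of all tested genes did. In pachytene spermatocytes 5 members had an unadjusted p under 0.05, and 7.29% of all tested genes did. In round spermatids 2 members did (all tested genes 3.32%), and for the difference 0 did (all tested genes 7.65%). No member's treated and saline arrays were free of overlap in either cell type (background 0.623% and 0.191%).

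The data also bound the size of any effect. The 95% intervals of all 55 tested members lay within 2-fold in both cell types. Those of 93.4% of all tested genes did so in pachytene spermatocytes and of 95.7% in round spermatids. Within 1.5-fold lay 44 of them in pachytene spermatocytes (62% of all tested genes) and 47 in round spermatids (74.1%). The fitted differences ran from -0.54 to 0.26 in pachytene spermatocytes and from -0.44 to 0.26 in round spermatids.

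The members with the smallest p-values in pachytene spermatocytes were Ppp4r4, a PP4 regulator, higher by 0.26 ± 0.09 (SE), and Ppp1r1b, Ppp3r1, Ppp6r2 and Ppp1r12b. Ppp4r4 levels were 1.24, 1.32, 1.37, 1.44 and 1.49 in saline arrays and 1.46, 1.52, 1.64, 1.74 and 1.80 in treated arrays, with 1 treated array below the highest saline one. For Ppp1r1b the difference was -0.54 ± 0.19 (SE), for Ppp3r1 -0.37 ± 0.17, for Ppp6r2 -0.35 ± 0.17 and for Ppp1r12b -0.34 ± 0.16, and the adjusted p of each of the 5 was 0.681.

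Ppp3r1, Ppp6r2 and Ppp1r12b are among the genes far higher in round spermatids. Of 12 round spermatid markers, 0 passed for the drug in pachytene spermatocytes. All 12 had a fitted difference below 0 (median -0.51), and 8 had an unadjusted p under 0.05, against 7.29% of all tested genes. Their summed signal was 30.4 to 52.5 in treated and 32.9 to 70.4 in saline arrays. Their part in these differences was not tested. On the first scan day alone the difference was -0.12 for Ppp3r1, -0.08 for Ppp6r2 and -0.08 for Ppp1r12b, and on the second -0.54, -0.53 and -0.52. Ppp4r4 was 0.27 on the first and 0.26 on the second.

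In round spermatids Ppp1r1b was lower by 0.44 ± 0.18 (SE) and Ppp6r1, a PP6 regulatory subunit, higher by 0.23 ± 0.10 (SE), both with an adjusted p of 0.9997. Ppp1r1b is dim, and under normexp background correction its pachytene difference was -0.07. Its second probe, well above background on 3 of 22 arrays, gave 0.24 in pachytene spermatocytes and -0.04 in round spermatids. No member had an unadjusted p under 0.05 for the difference of the drug effects between the cell types.

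**Figure D4:**
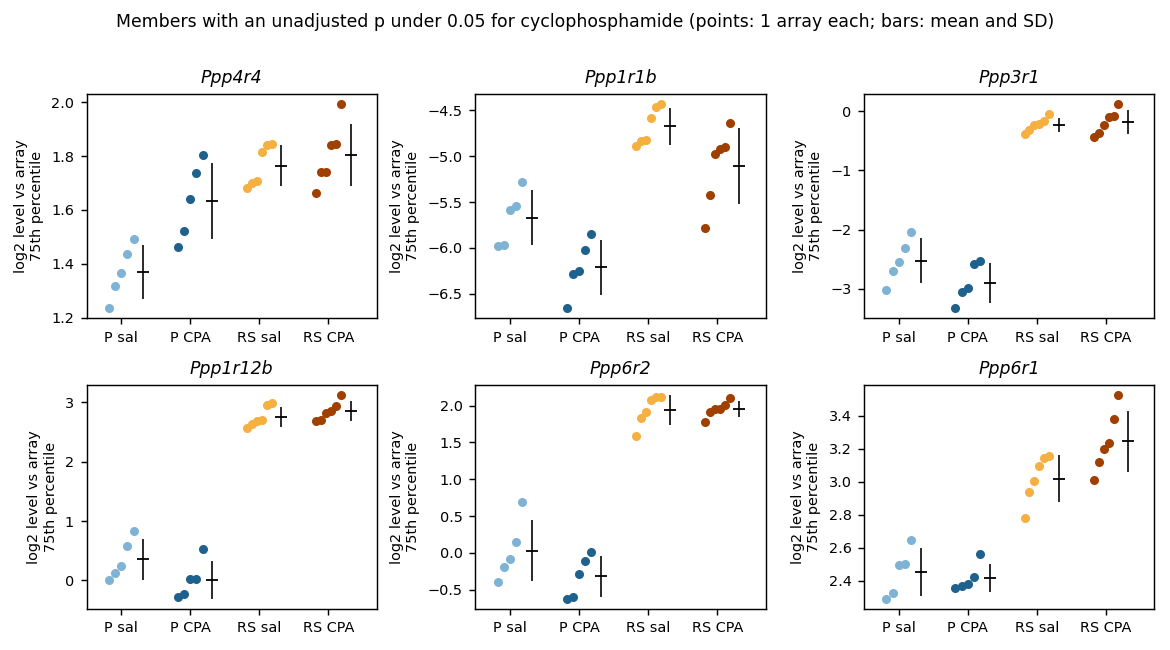
Levels (log2, relative to each array's 75th percentile) of the 6 members with an unadjusted limma p under 0.05 for cyclophosphamide in either cell type, 1 point per array, by cell type (P, pachytene; RS, round spermatid) and treatment (sal, saline; CPA, cyclophosphamide); bars show mean and SD. Treated and saline arrays overlap for every gene within each cell type, and Ppp3r1, Ppp1r12b, Ppp6r2 and Ppp6r1 separate the cell types.

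**Figure D5:**
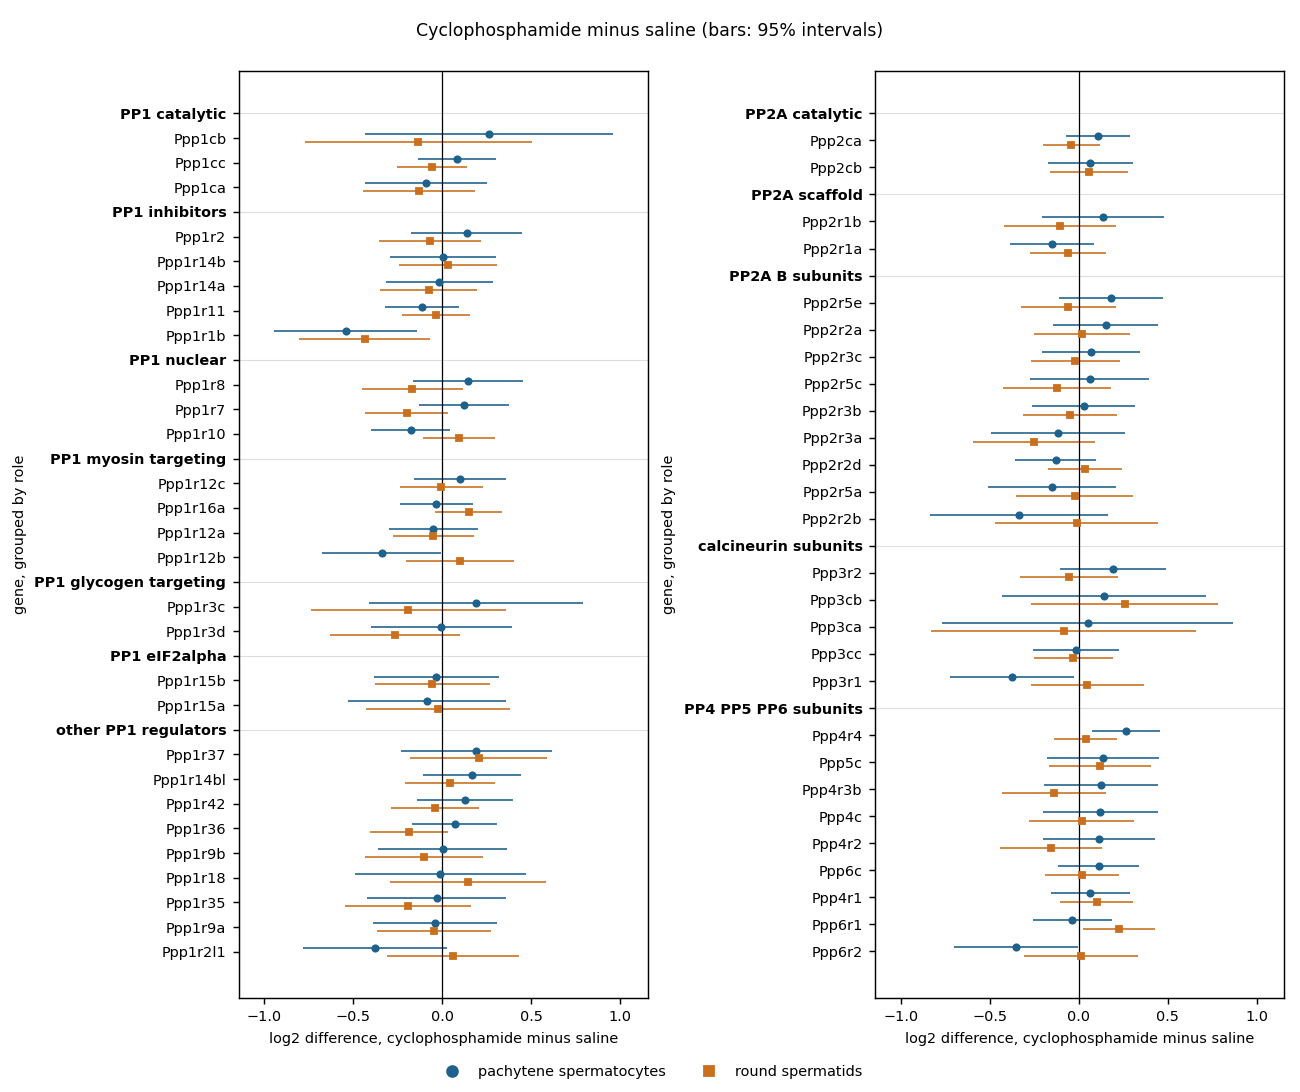
Log2 difference between cyclophosphamide and saline for the 55 tested members, by role, in pachytene spermatocytes (blue circles) and round spermatids (orange squares); bars are 95% intervals. Every interval lies between -1 and 1.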

How the data were processed

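RNA of 22 germ cell fractions was hybridised to Agilent one-colour arrays. The deposited spot values are background-subtracted intensity, processed by the authors with Feature Extraction, version 10.7.3.1 per the file headers and 11.5.1.1 per the submitters' processing notes. The authors' deposited value table holds log2 values and was used as an alternative for the drug comparisons alone. Its columns matched quantile normalized signals of their own array (highest correlation with another array 0.586), and its exact steps are not given in the sources used here. It had 0 unused columns.

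Outlier and control spots were left out, spots of a probe averaged, and the log2 signal scaled by each array's 75th percentile. RefSeq accessions (GRCr8) named 17998 of 30367 probes (59.3%). A gene was tested where over 0.5 of its spots were well above background on all but at most 1 array of a group compared. Tests used limma 3.58.1 (lmFit, eBayes) with statmod 1.5.0 in R 4.3.3, 4 group means over 22 arrays, and Benjamini-Hochberg adjustment over all tested genes at 0.05. The difference of drug effects is round spermatids minus pachytene spermatocytes. Motifs and figures used Python 3.11.15, pandas 2.3.3, numpy 2.4.6 and matplotlib 3.10.9. The R package data.table (version 1.17.8) read the files in R. The fit was tested on simulated data. P-values measure the spread between these arrays, and the number of arrays limits the precision. Each fraction is labelled with 1 rat number, but the labels do not say whether equal numbers name the same animal.

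The members, roles and lists were chosen with earlier results of these data known, and the printed promoters after the members' values and the result of the search for 5 motifs were known. Full values are given for catalytic subunits, for up to 12 passing members per direction with the largest cell type difference, and for the smallest drug p-values, up to 4 per direction. Alternatives were normexp (offset 50, on median signals, since mean signals are not in the files), quantile and median scaling, 2 filters on dim probes, slide as a block, within slides, a replicate block, probe averaging, only the groups compared and each array left out. Scan days were added after seeing the data.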

Additional observations from a re-analysis of the deposited data

Results flagged for a closer look

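Among the 55 tested members, 212 groups of arrays were checked for a highest or lowest array far from the others, and 8 stood apart by Dixon's 95% criterion. Chance flags about 1 in 20 groups.

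In pachytene spermatocytes of saline rats, array 16 held both flagged values: Ppp1r10 at 1.524, against 1.131 to 1.232 in the others, and Ppp1r11 at 2.725, against 2.322 to 2.429. In treated pachytene spermatocytes, 1 of the 2 arrays numbered 16 had Ppp2ca at 0.146 against 0.295 to 0.355. In treated round spermatids, array 14 had Ppp1r2 at -3.136 against -2.905 to -2.794, array 27 had Ppp1r7 at -1.919 against -1.651 to -1.606, and array 16 had Ppp6c at 0.882 against 1.089 to 1.213. In round spermatids of saline rats, array 28 had Ppp1r37 at -2.252 against -1.532 to -1.249, and array 29 had Ppp3ca at -1.221 against -4.125 to -3.929.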

How the results depend on the processing

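In saline rats 42 of 55 members passed between the cell types. The count was 27 within slide 1, where fewer arrays enter, and 28 within slide 2 (55.8% and 60.2% of all tested genes), and 36 with slide as a block (72.7%). Leaving out 1 array gave 39 to 43 (73.4% to 74.8% of all tested genes). In cyclophosphamide rats 38 passed, 33 with slide as a block (77.4% of all tested genes), and leaving out 1 array gave 35 to 38 (77.5% to 78.7%). The drug comparisons and their difference gave 0 passing members under every alternative run, left-out arrays included. With the replicate block, which joins arrays by treatment and rat number, 42, 38, 0, 0 and 0 members passed. Deviations of same-numbered arrays correlated at -0.10 to 0.38 within a treatment and at -0.14 to 0.06 across treatments. Arrays with different numbers were not correlated for reference, so these values cannot decide whether equal numbers are pairs. The main fit took neither numbering as pairs. A fit with the numbers shared across treatments as a block gave 0 members in round spermatids. Ppp4c in treated rats, 0.38, turned to -0.349 within slide 2 and -0.00852 on the first scan day, and Ppp1r18 in treated rats, -0.49, turned to 0.132 within slide 2. Both slide 2 values rest on 1 treated pachytene array, number 29. Among the treated pachytene arrays it had the highest Ppp4c (0.82) and the lowest Ppp1r18 (-5.31). The cause was not tested. A single left-out array took the call in at least 1 treatment from Ppp1ca, Ppp1r15a, Ppp1r15b, Ppp1r18, Ppp1r3c, Ppp2r3a, Ppp2r5e, Ppp3cb, Ppp4c and Ppp6c, and gave one to Ppp1cc, Ppp1r9b, Ppp2r1a, Ppp2r3a, Ppp2r5c, Ppp3cb and Ppp4r4. Dim members, Ppp1r1b above all, are limited by their signal over background.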
